A study of Rattus norvegicus with 10 samples.

Results

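The mitochondrial carriers of the Slc25 family are the proteins of the inner mitochondrial membrane that exchange nucleotides, phosphate, acids, amino acids, cofactors and metal ions between the cytosol and the matrix. Most are small proteins with a repeated membrane domain, and a few work elsewhere, in peroxisomes or in the outer mitochondrial membrane. In skeletal muscle the best known members are the adenine nucleotide carrier Slc25a4 and the phosphate carrier Slc25a3, which together supply ATP synthase with ADP and phosphate and send ATP out to the contractile apparatus. The members described here are all 39 gene symbols of the deposited annotated table that begin with Slc25a and a number, of 19069 usable symbols in all. They were covered by 54 probe sets, and each of the 10 members with several probe sets was represented by the brightest.

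The tissue was the lateral gastrocnemius of the left hind limb, a calf muscle of mixed fibre types, taken from male Sprague-Dawley rats, an outbred stock. The aged group, a model of sarcopenia (loss of muscle with age), comprised 5 rats described as 24 months old, with an age of 28 months at necropsy, and the young controls comprised 5 rats described as 6 months old, with an age of 7 months at necropsy. Both groups were untreated as far as the labels say, shared the same housing and free access to food and water, and were killed with CO2 followed by bleeding, and each animal gave 1 expression array. In the deposited table the names of 2 aged columns, equal in their values to aged replicates 4 and 5, carry the word replacement, which is not explained. They are called the replacement arrays below, and fits without them rest on 3 aged and 5 young animals. The question was which transcripts change in muscle with age. Values are linear intensities of probe sets, tests were made on log2 intensity with limma, and a gene is said to have risen or fallen where its p-value, adjusted over all 43686 probe sets by the Benjamini-Hochberg method, was under 0.05.

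All 8 muscle fibre markers were bright in every animal, with summed intensities of 113610 to 126716 in aged muscle and 114646 to 125191 in young muscle. Of these 8 markers, Myh1, a fast myosin, fell (log2 difference -0.83 ± 0.13 SE, adjusted p = 0.00122). Among 6 macrophage markers 3 rose (Cd68, Adgre1 and Csf1r), and their summed intensity was 628 to 990 in aged muscle and did not overlap the 308 to 620 of young muscle. Of 5 fat cell markers 1 rose (Cfd), with sums of 792 to 2485 against 421 to 901. Of 5 fibroblast markers 1 rose (Col3a1), with sums of 6459 to 8395 against 5002 to 7638. The other fibroblast markers did not pass: Col1a1 (-0.44, adjusted p = 0.0571) and Lum (-0.11) lay lower in aged muscle, Pdgfra (0.31) and Dcn (0.07) higher. Of 3 satellite cell markers 1 rose (Myf5), with sums of 148 to 208 against 154 to 174, while Pax7 (-0.16) and Cdh15 (-0.39) lay lower without passing. None of the 4 measured erythroid, 5 endothelial and 5 Schwann cell markers passed, and no marker was listed at 0. The part of these other cells in the results below was not tested, and in whole muscle fewer cells of a type cannot be told apart from less RNA per cell. Array medians ran from 13.46 to 13.99 over the 10 arrays, and no measure of background came with the values.

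Carrier transcripts went both ways in aged muscle, with a marked fall of the calcium-regulated ATP-magnesium carrier Slc25a25 and a rise of the ubiquitous adenine nucleotide carrier Slc25a5. Of the 39 members 10 fell, 6 rose and 23 did not pass. Across all symbols, with the brightest probe set of each, 22.4% passed, 13.8% higher and 8.69% lower in aged muscle, against 41.0% of the members, 15.4% higher and 25.6% lower. The shares of all symbols are the background for the counts of smaller groups and of partner genes below, which were not tested as sets. All 16 members that passed were among the 35 whose probe set was brighter than the median of all probe sets, and of all symbols that bright 31% passed, 19.4% higher and 11.6% lower. The median log2 difference was -0.09 over the 39 members and -0.01 over all symbols. Most changes were small: 2 members fell by more than 1.5-fold (Slc25a25 and Slc25a30) and 2 rose by more than 1.5-fold (Slc25a5 and Slc25a17). The values of the aged and young animals did not overlap in 15 members, 5 with the aged animals above and 10 with them below, against 17.3% of all symbols, 10.6% above and 6.68% below. These 15 were every member that passed except Slc25a27 and Slc25a40, and in addition the phosphate carrier Slc25a3, which did not pass.

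**Figure D1:**
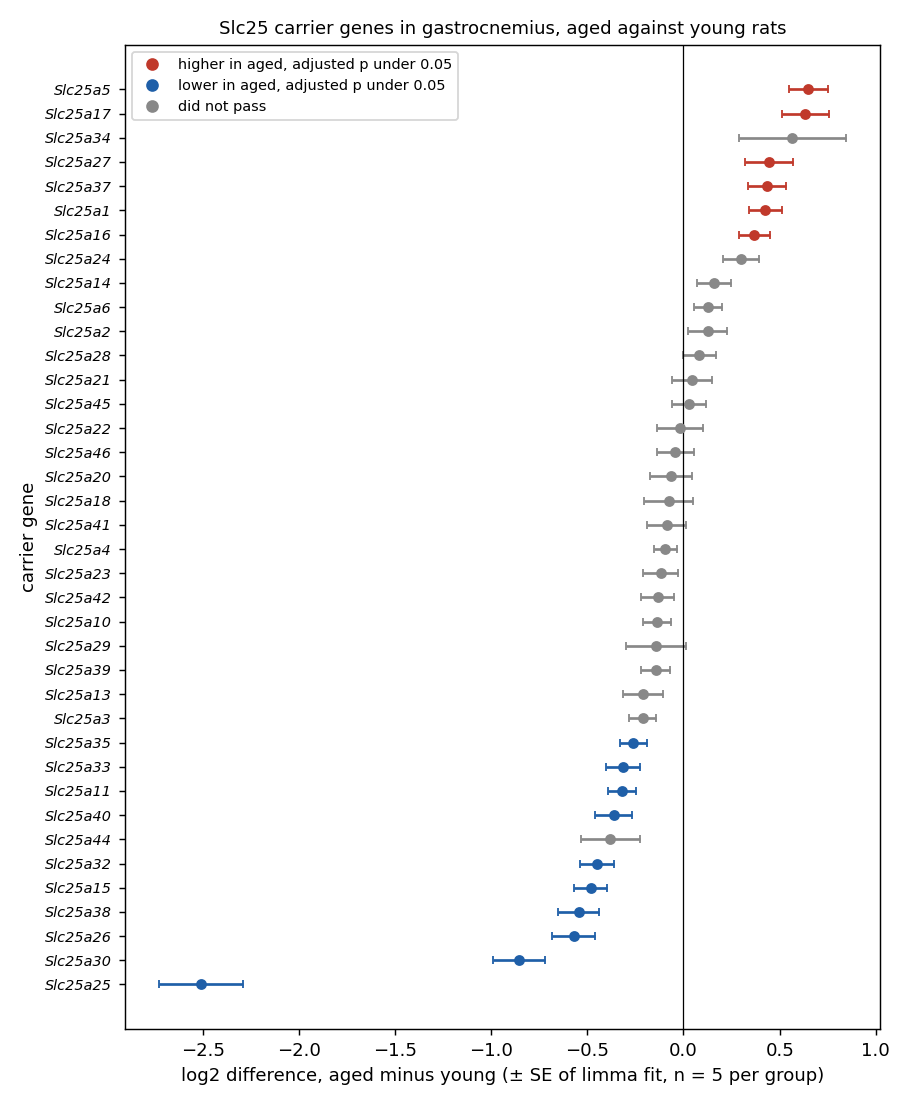
The log2 difference between aged and young muscle is plotted for 38 of the 39 carrier genes, with bars for the standard error of the limma fit and colours for the outcome of the test (n = 5 animals per group). Slc25a25 stands far to the left at -2.51, the other 9 genes that fell lie between -0.85 and -0.26, and the 6 that rose lie between 0.37 and 0.65.

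Of the 8 carriers of adenine nucleotides and phosphate 1 fell, 1 rose and 6 did not pass, against 22.4% of all symbols that passed. Slc25a25 encodes a carrier that exchanges ATP-magnesium for phosphate and is switched on by cytosolic calcium. Its intensity was 1304, 761, 565, 615 and 910 in young and 195, 166, 107, 117 and 130 in aged animals. Every aged animal lay below every young one, and the young animals spread more widely than the aged, with young replicate 1 the highest. The log2 difference was -2.51 ± 0.22 (SE, limma adjusted p = 3.01e-05), a level 5.69-fold lower in aged muscle. Its relatives Slc25a24, Slc25a23 and Slc25a41 encode carriers of the same kind, of which Slc25a41 lacks the calcium-binding part. Slc25a24 gave intensities of 50.2, 39.6, 45.2, 46.3 and 42.05 in the young and of 47.8, 54.3, 49.2, 61.5 and 62.9 in the aged rats. The young range of Slc25a24 touched the lower aged values, and its log2 difference of 0.30 ± 0.10 narrowly missed the threshold (adjusted p = 0.0511). It passed in 6 of 18 alternatives, among them the fits without aged replicate 1, aged replicate 3 or young replicate 1, with an adjusted p of 0.0229 at the lowest. Slc25a23 gave intensities of 115, 125, 124, 125 and 105 in the young and of 105, 113, 112, 129 and 91.2 in the aged rats. These groups overlapped, and the brightest probe set of Slc25a23 did not pass (-0.12 ± 0.09, adjusted p = 0.45, 95% interval -0.32 to 0.08). Of its other 4 probe sets, one of nearly the same brightness did, with a log2 difference of -0.39 ± 0.10 (adjusted p = 0.0209). Slc25a41 was among 5 members, with Slc25a2, Slc25a21, Slc25a33 and Slc25a42, with at least one group mean under the dimmest array median (13.46), so that their levels are not shown to be above background. Slc25a41 did not pass (-0.09 ± 0.10, adjusted p = 0.635).

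The promoter of Slc25a25 was picked because the gene passed with a change of more than 1.5-fold. Among 33 members with an entry in the RefSeq promoter table, only Slc25a25 and Slc25a33 held the full cAMP response element TGACGTCA there. This motif is bound by CREB-type factors, and the promoter of Slc25a33 was added for it. The promoter of Slc25a17, picked by the same fold, is not shown. The sequences run 5′ to 3′ on the gene's own strand from 250 bases before to 50 after the annotated start, in the rat build GRCr8. Capitals mark matches on either strand to TGACGTCA, to its core TGACG, which every full element contains, to the GC box GGGCGG, to the E-box CACGTG and to the nuclear receptor motif AAGGTCA. The first lies at chr3:36116532-36116831 (minus strand) and the second at chr5:165502924-165503223 (minus strand).
Slc25a25: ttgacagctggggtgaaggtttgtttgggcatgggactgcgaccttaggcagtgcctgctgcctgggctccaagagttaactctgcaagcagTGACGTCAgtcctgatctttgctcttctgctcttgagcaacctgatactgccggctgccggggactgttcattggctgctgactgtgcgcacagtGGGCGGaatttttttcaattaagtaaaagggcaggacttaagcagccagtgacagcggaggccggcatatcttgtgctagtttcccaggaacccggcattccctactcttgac
Slc25a33: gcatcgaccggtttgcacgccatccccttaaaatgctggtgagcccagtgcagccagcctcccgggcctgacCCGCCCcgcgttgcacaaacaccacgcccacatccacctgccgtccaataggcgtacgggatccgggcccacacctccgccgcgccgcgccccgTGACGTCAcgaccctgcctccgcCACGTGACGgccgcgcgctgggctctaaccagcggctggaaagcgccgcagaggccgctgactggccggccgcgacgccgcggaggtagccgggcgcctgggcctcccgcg
Of 33469 promoters of this length in the table, 1.83% held TGACGTCA and 21.2% held TGACG, against 2 and 11 of the 33 members. In the Slc25a33 promoter an E-box overlaps a core element. GGGCGG was found in 24 of the 33 members and in 33.1% of all promoters, CACGTG in 2 members and 6.42% of all, and AAGGTCA in 1 member (Slc25a34) and 4.61% of all. For members a match in any promoter entry of the gene counted, while the shares of all promoters count single entries, so the measures are not fully alike. A match describes letters in this window and was not tested as a binding site.

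The ADP/ATP carriers of the inner membrane differed among themselves. Slc25a4 encodes the isoform of heart and skeletal muscle. Its intensity was 16560, 15913, 15890, 16135 and 15855 in young and 16025, 13971, 15058, 15445 and 14819 in aged animals. The ranges overlapped slightly at aged replicate 1, and the log2 difference was -0.09 ± 0.06 (adjusted p = 0.348, 95% interval -0.23 to 0.04). Slc25a5 encodes the isoform found in most tissues and in growing cells. The young animals measured 717, 740, 740, 639 and 579, and the aged animals 929, 952, 1213, 1050 and 1221. Every aged animal was above every young one, with a log2 difference of 0.65 ± 0.10 (adjusted p = 0.000967), 1.57-fold higher in aged muscle. Slc25a6, listed in the table as another ADP/ATP carrier, did not pass (0.13 ± 0.07, adjusted p = 0.296). Carriers of this subgroup are close in sequence and the probe sequences were not used here, so a share of signal from one in the probe set of another was not tested. The phosphate carrier Slc25a3 delivers phosphate to the matrix for ATP synthesis. Its intensity was 11892, 12697, 12329, 12309 and 12045 in young and 11837, 9855, 11187, 10069 and 10059 in aged animals. Its aged values lay below its young ones without overlap, but by little at aged replicate 1, and the log2 difference of -0.21 ± 0.07 missed the threshold (adjusted p = 0.056). It passed in 4 of 18 alternatives, among them the fit without aged replicate 1, with an adjusted p between 0.0207 and 0.249 over all 18.

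The promoters of this isoform pair are shown for comparison, since Slc25a5 rose and Slc25a4 did not pass. Slc25a5 lies at chrX:120897366-120897665 and Slc25a4 at chr16:52805271-52805570, both on the plus strand.
Slc25a5: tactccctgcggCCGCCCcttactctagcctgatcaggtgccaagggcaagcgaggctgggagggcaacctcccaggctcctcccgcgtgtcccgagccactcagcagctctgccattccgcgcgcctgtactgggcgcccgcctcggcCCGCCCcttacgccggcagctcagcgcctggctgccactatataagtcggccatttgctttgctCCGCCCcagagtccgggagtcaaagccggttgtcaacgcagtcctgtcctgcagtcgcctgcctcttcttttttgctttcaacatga
Slc25a4: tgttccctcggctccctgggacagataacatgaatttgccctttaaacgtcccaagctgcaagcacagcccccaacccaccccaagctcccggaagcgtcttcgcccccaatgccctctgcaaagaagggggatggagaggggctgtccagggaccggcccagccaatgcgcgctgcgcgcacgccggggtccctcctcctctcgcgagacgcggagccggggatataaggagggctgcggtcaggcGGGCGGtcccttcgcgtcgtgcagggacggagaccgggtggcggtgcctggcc
GGGCGG or its complement occurred 3 times in the Slc25a5 window and 1 time in that of Slc25a4, and none of the other motifs searched was found in either.

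**Figure D2:**
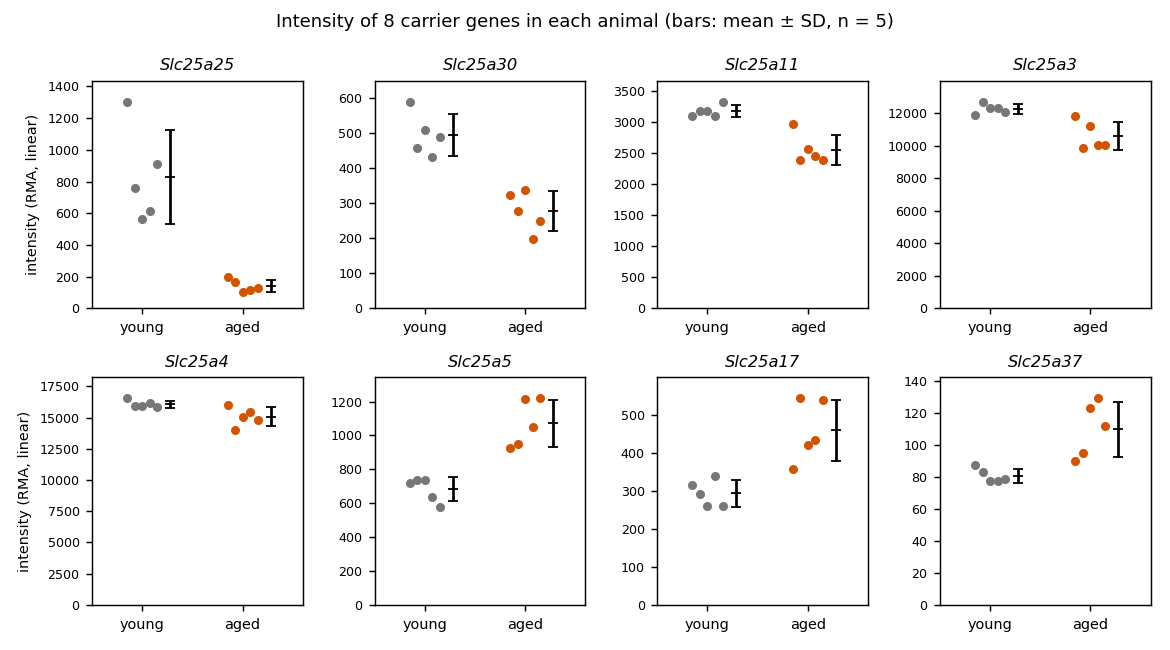
Intensity on a linear scale is plotted for 8 carrier genes, with a point for each animal and bars for the mean ± SD of 5 animals per group. The groups are fully apart for Slc25a25, Slc25a30, Slc25a11, Slc25a5, Slc25a17 and Slc25a37 and nearly touch for Slc25a3, while the ranges overlap for Slc25a4.

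Carriers related to the uncoupling proteins, which can let protons leak into the matrix, split as well. Slc25a30, first described in kidney mitochondria, fell to 1.81-fold lower levels. The young animals measured 590, 457, 508, 431 and 490, and the aged animals 324, 277, 340, 198 and 249. The groups did not overlap, and the log2 difference was -0.85 ± 0.14 (adjusted p = 0.00113). The other probe set of Slc25a30 fell too, by 1.12 on the log2 scale (adjusted p = 9.73e-05). Slc25a27, an uncoupling protein relative known from brain, rose from a low level. Slc25a27 gave intensities of 13.2, 17.1, 14.8, 16.7 and 14.5 in the young and of 21.9, 23.1, 19.2, 25.5 and 15.3 in the aged rats. Aged replicate 5 lay within the young range, and the call of Slc25a27 (log2 difference 0.44 ± 0.13, adjusted p = 0.0306) was lost without aged replicate 2 or 4 or young replicate 1, 3 or 5 and with a pseudocount (0.24), with an adjusted p of 0.0765 at most. Slc25a14, another relative known from brain, gave intensities of 81.4, 73.0, 68.1, 62.8 and 65.5 in young and 71.9, 77.7, 80.3, 89.8 and 71.6 in aged muscle and did not pass (0.16 ± 0.09, adjusted p = 0.27). The uncoupling proteins proper belong to the family under other symbols: Ucp2, found in many tissues and immune cells, rose 1.42-fold (0.51 ± 0.13, adjusted p = 0.0162), while the muscle form Ucp3 did not pass (-0.12 ± 0.22, adjusted p = 0.787). Of 7 measured family members under other symbols 2 rose and 5 did not pass, against 13.8% of all symbols that rose. The second riser was Mtch1, an outer membrane protein (1.41-fold higher, adjusted p = 0.00121), and 1 of the 7 rose without the replacement arrays.

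Of 4 carriers of di- and tricarboxylates, the oxoglutarate carrier Slc25a11 fell, the citrate carrier Slc25a1 rose and 2 did not pass. Slc25a11 encodes the oxoglutarate carrier, the malate entry step of the malate-aspartate shuttle, which moves reducing equivalents of cytosolic NADH into the matrix. Its intensity was 3090, 3172, 3184, 3095 and 3325 in young and 2970, 2390, 2562, 2458 and 2388 in aged animals. All aged animals lay below all young ones, aged replicate 1 being the closest, and the log2 difference was -0.32 ± 0.07 (adjusted p = 0.00984). The call was lost without the replacement arrays (-0.27, adjusted p = 0.0692). Its dimmer probe set gave -0.40 ± 0.09 (adjusted p = 0.0107). Slc25a13, which encodes an aspartate-glutamate carrier of the same shuttle, measured 29.6, 38.9, 30.0, 29.8 and 27.8 in young and 32.0, 28.3, 24.1, 24.8 and 25.5 in aged animals and did not pass (-0.21 ± 0.10, adjusted p = 0.209, 95% interval -0.43 to 0.01). Slc25a12, the other aspartate-glutamate carrier, was not analysed here. Of 6 enzymes of the NADH shuttles 5 fell and 1 did not pass, against 8.69% of all symbols that fell. Those that fell were the malate dehydrogenases Mdh1 (1.45-fold) and Mdh2 (1.32-fold) and the cytosolic aspartate aminotransferase Got1 (1.57-fold). The glycerol 3-phosphate dehydrogenases Gpd1 (3.32-fold) and Gpd2 (2.08-fold) were the others. Slc25a1 encodes the citrate carrier, which exports citrate for lipid synthesis. Slc25a1 gave intensities of 43.1, 44.6, 46.9, 41.2 and 35.9 in the young and of 55.9, 54.1, 54.4, 65.3 and 54.2 in the aged rats. The groups of Slc25a1 did not overlap, and it rose 1.34-fold (0.43 ± 0.09, adjusted p = 0.00454). The dicarboxylate carrier Slc25a10 (-0.14 ± 0.07) and the oxodicarboxylate carrier Slc25a21 (0.05 ± 0.10) did not pass, with adjusted p-values of 0.245 and 0.821.

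Amino acid carriers fell or did not pass. Slc25a38 encodes a carrier that brings glycine into mitochondria for heme synthesis. Its intensity was 125, 136, 149, 143 and 129 in young and 122, 93.0, 95.2, 78.9 and 82.4 in aged animals. Aged replicate 1 came within a few units of the lowest young animal, the other aged animals lay well below, and the log2 difference was -0.54 ± 0.11 (adjusted p = 0.00426). Slc25a15 encodes the ornithine carrier of the urea cycle. The young animals measured 266, 246, 266, 236 and 285, and the aged animals 213, 163, 193, 170 and 195. Without overlap between the groups it fell 1.4-fold (-0.48 ± 0.09, adjusted p = 0.00223), but none of its 3 dimmer probe sets passed, and with the mean over its probe sets the difference was -0.19 (adjusted p = 0.036). The other 6 amino acid carriers did not pass: besides Slc25a13 these were the ornithine carrier Slc25a2, the glutamate carriers Slc25a18 and Slc25a22, the basic amino acid carrier Slc25a29 and the branched-chain amino acid carrier Slc25a44. In Slc25a44, which had the lowest log2 difference of the uncalled members (-0.38 ± 0.15, adjusted p = 0.118), the test passed without aged replicate 3 (adjusted p = 0.0462). Slc25a29 spread much more in aged (SD 43.3) than in young animals (SD 4.61, n = 5 each).

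As carriers of pyrimidine nucleotides or of cofactors other than coenzyme A and glutathione, 4 members were grouped. Slc25a26, Slc25a32 and Slc25a33 fell and 1 did not pass, against 8.69% of all symbols that fell. Slc25a26 imports S-adenosylmethionine, the methyl donor for mitochondrial RNA, DNA and protein methylation. Its intensity was 149, 148, 167, 151 and 146 in young and 136, 95.7, 97.6, 81.8 and 109 in aged animals. The log2 difference was -0.57 ± 0.11 (adjusted p = 0.00409), a 1.49-fold fall without overlap, with aged replicate 1 again nearest to the young animals. Slc25a32 encodes a carrier for folate and flavin adenine dinucleotide. The young animals measured 120, 114, 120, 112 and 112, and the aged animals 96.6, 95.5, 71.2, 78.2 and 84.3. The lowest young animal stood above all 5 aged ones, and the log2 difference was -0.45 ± 0.09 (adjusted p = 0.00369). Slc25a33, a pyrimidine nucleotide carrier, was dim, with intensities of 16.9, 15.8, 14.6, 19.4 and 14.8 in young and 13.6, 11.5, 13.4, 13.8 and 13.0 in aged rats. Slc25a33 fell without overlap (-0.31 ± 0.09, adjusted p = 0.0282), a call that was lost without aged replicate 2 or 5 or young replicate 1 or 4 and without the replacement arrays (adjusted p of 0.0722 at most), and with a pseudocount the difference was -0.15.

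Carriers for coenzyme A and its relatives rose in 2 of 3 cases, against 13.8% of all symbols that rose. Slc25a17 encodes a peroxisomal carrier for coenzyme A and nucleotide cofactors. Its intensity was 317, 291, 260, 341 and 262 in young and 357, 545, 420, 435 and 539 in aged animals. The groups did not overlap, aged replicate 1 being the lowest of the aged animals, and Slc25a17 rose 1.55-fold (0.63 ± 0.12, adjusted p = 0.0034). Slc25a16, linked to coenzyme A import into mitochondria, measured 138, 131, 149, 146 and 130 in young and 162, 200, 179, 163 and 193 in aged animals. It rose 1.29-fold without overlap (0.37 ± 0.08, adjusted p = 0.00683), and its dim second probe set rose as well (0.35 ± 0.09, adjusted p = 0.0173). That second probe set lay below every array's median, so its level is not shown to be above background. Slc25a42, a coenzyme A carrier of the inner membrane, lay below every array's median and did not pass (-0.13 ± 0.08, adjusted p = 0.33).

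Of the iron importers, the mitoferrins, one rose and the other did not pass. Slc25a37, mitoferrin 1, is the form that supplies iron for heme in red cell precursors. Its intensity was 87.2, 82.9, 77.2, 77.2 and 78.7 in young and 90.1, 94.7, 123, 129 and 112 in aged animals. The lowest aged animal stood just above the highest young one, and Slc25a37 rose 1.35-fold (0.43 ± 0.10, adjusted p = 0.0104), a call lost without the replacement arrays (adjusted p = 0.0680). Of 7 erythroid markers 4 were measured and none passed, with summed intensities of 495 to 5368 in aged and 1086 to 1862 in young animals. Slc25a28, mitoferrin 2, is the form of other tissues. The young animals measured 385, 472, 383, 439 and 426, and the aged animals 454, 434, 390, 518 and 435. Its ranges overlapped, and it did not pass (0.08 ± 0.09, adjusted p = 0.594, 95% interval -0.11 to 0.27). Of 12 measured genes of mitochondrial iron, heme and iron-sulfur clusters 6 fell and 6 did not pass, against 8.69% of all symbols that fell. Among the falls were those of Isca1, a late assembly factor (1.46-fold), Glrx5, a glutaredoxin of cluster transfer (1.42-fold), Abcb10, a transporter of the heme pathway (1.33-fold) and the ferredoxin Fdx1 (1.28-fold). The number that fell was 10 without aged replicate 1 and with quantile normalization, 3 without young replicate 4, and 4 without aged replicate 2, 4 or 5, young replicate 5 or the replacement arrays and with the replicate block.

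The glutathione carriers Slc25a39 and Slc25a40, which bring glutathione into the matrix, were both lower on average in aged muscle, 1 with a call. For Slc25a40 the intensity was 42.3, 34.5, 35.2, 43.1 and 32.3 in young and 33.5, 27.7, 28.1, 29.7 and 26.2 in aged animals, overlapping through aged replicate 1. Slc25a40 fell 1.29-fold (-0.36 ± 0.10, adjusted p = 0.0223), and the call was lost without aged replicate 2, 3 or 5, without young replicate 1 or 4 and without the replacement arrays (adjusted p of 0.101 at most). Slc25a39 gave intensities of 914, 823, 792, 917 and 892 in the young and of 890, 723, 770, 772 and 769 in the aged rats. It did not pass (-0.15 ± 0.07, adjusted p = 0.229, 95% interval -0.31 to 0.02).

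The acylcarnitine carrier and the remaining members did not pass, with the exception of Slc25a35. Slc25a20 exchanges acylcarnitine for carnitine, the step that brings long-chain fatty acids into the matrix. Its intensity was 772, 1052, 1099, 870 and 884 in young and 1040, 781, 857, 976 and 807 in aged animals. The groups were thoroughly mixed, with a log2 difference of -0.06 ± 0.11 (adjusted p = 0.758, 95% interval -0.30 to 0.17). Of 5 other genes of the carnitine shuttle Cpt1a, the liver form of the outer carnitine palmitoyltransferase, rose 1.75-fold (adjusted p = 0.0213), Cpt2, the inner one, fell 1.41-fold (adjusted p = 0.0370), and Cpt1b, the muscle form, was among the 3 that did not pass (0.16 ± 0.12, adjusted p = 0.427). Neither Cpt1a nor Cpt2 passed without aged replicate 2 or young replicate 3, 4 or 5 or with a pseudocount, and Cpt2 did not pass without aged replicate 3 or 5, young replicate 2 or the replacement arrays or with the replicate block either. Slc25a35, whose substrate is less settled, measured 45.1, 49.9, 42.2, 40.3 and 46.0 in young and 38.5, 38.5, 36.4, 35.8 and 36.9 in aged rats. It fell 1.2-fold without overlap (-0.26 ± 0.07, adjusted p = 0.024), but its dimmer probe set did not pass, and the call was lost without aged replicate 3 or 5, young replicate 2 or 5 or the replacement arrays and with the mean over both probe sets (-0.12, adjusted p = 0.167). Slc25a34 had the highest log2 difference of the uncalled members (0.57 ± 0.28, adjusted p = 0.21): its aged values ran from 43.8 to 158, with aged replicate 4 the highest, and its young values from 40.8 to 67.1. Slc25a45, another carrier with a less settled substrate, and Slc25a46, an outer membrane protein of mitochondrial shape, stayed within overlapping ranges (0.03 ± 0.09 and -0.04 ± 0.09, adjusted p = 0.871 and 0.822).

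**Figure D3:**
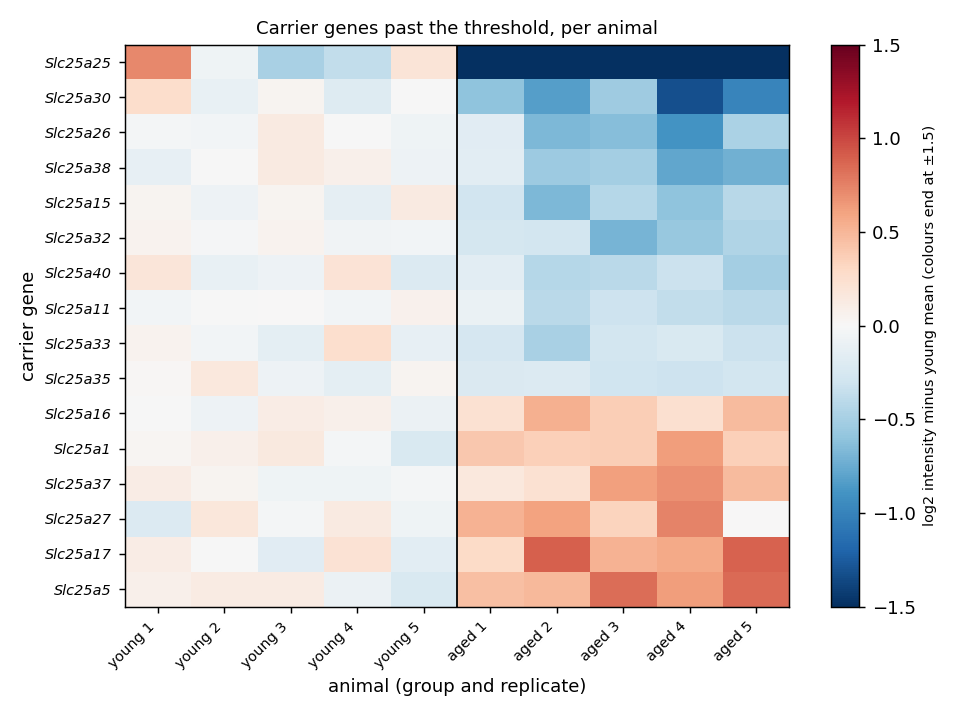
Log2 intensity minus the young mean is shown by colour for the 16 carrier genes that passed (rows) in each of the 10 animals (columns), with colours ending at ±1.5. The aged columns are blue for the 10 genes that fell and red for the 6 that rose, except Slc25a27 in aged replicate 5, which lies at the young mean. Aged replicate 1 is the palest aged column, with mean shifts of -0.42 and 0.34.

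The aged animals did not all differ from the young ones to the same degree. Over the 10 members that fell, the mean log2 shift from the young mean was -0.42 in aged replicate 1 and between -0.82 and -0.68 in the other 4 aged animals. Over the 6 that rose, it was 0.34 in aged replicate 1 and between 0.51 and 0.58 in the others. Aged replicate 1 was the aged animal nearest to the young mean in 11 of the 16 genes. Across all probe sets its array correlated with the other aged arrays at a mean Pearson's r of 0.9902 and with the young arrays at 0.9895 (over probe sets, which are not independent replicates). Without this animal 12 members fell and 7 rose, with Slc25a3 among those added to the falls and Slc25a24 added to the rises.

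Related carriers changed unequally within the same muscle. For 9 pairs of related members the log2 ratio of their intensities was taken within each array, so that a shift common to an array cancels, and compared between the groups with an exact two-sided permutation test (all splits of the 10 animals, smallest possible p = 0.00794), with p-values adjusted over the 9 pairs. The ratio of Slc25a4 to Slc25a5 fell by 0.74 on the log2 scale in aged muscle (range 3.60 to 4.11 in aged and 4.42 to 4.78 in young animals, n = 5 each, exact p = 0.0079, adjusted p = 0.0143). Slc25a25 fell against both of its calcium-regulated relatives, by 2.81 against Slc25a24 and by 2.39 against Slc25a23, and Slc25a24 rose against Slc25a23 by 0.42 (exact p = 0.0079 and adjusted p = 0.0143 in each). Slc25a14 rose against Slc25a30 by 1.01 (exact p = 0.0079, adjusted p = 0.0143). These 5 pairs also passed in each of the 10 fits that left out 1 animal, and the pair of Slc25a24 with Slc25a23 missed the threshold without the replacement arrays. Nothing is read from the ratio of Slc25a15 to Slc25a2, since Slc25a2 is not shown to be above background. The rise of Slc25a37 against Slc25a28 (0.35) and that of Slc25a39 against Slc25a40 (0.22) had an exact p = 0.0397 and an adjusted p = 0.0446, and missed the threshold when single animals were left out, in 8 and 9 of the 10 cases, and with quantile normalization, the mean over probe sets, a pseudocount or the replacement arrays left out. Slc25a37 against Slc25a28 passed without aged replicate 1 or young replicate 1, and Slc25a39 against Slc25a40 without young replicate 5. The glutamate carriers Slc25a22 and Slc25a18 did not differ detectably in their change (0.06, exact p = 0.714). A ratio within an array shows unequal change, not which member changed. Where a member passed by itself, as Slc25a25, Slc25a30 and Slc25a5 did, its ratio largely restates that change and is no separate evidence. The ratios among Slc25a25, Slc25a24 and Slc25a23 share members and are not independent of each other.

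**Figure D4:**
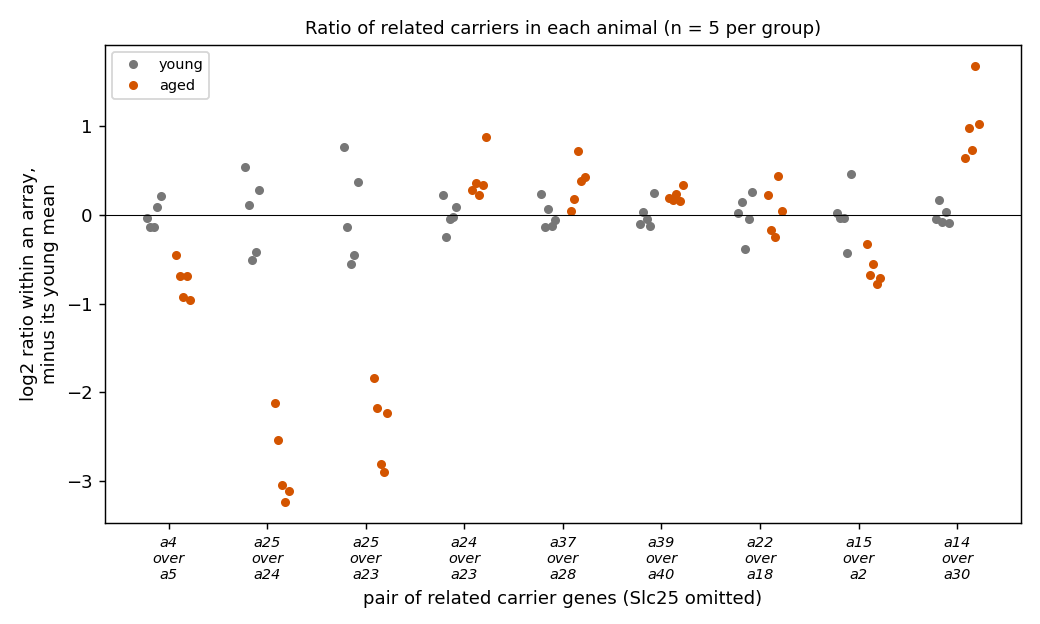
The log2 ratio of 2 related carriers within an array, minus its mean over the young animals, is plotted for 9 pairs with a point per animal (5 young in grey, 5 aged in orange). Aged and young points are fully apart for the ratios of a4 to a5, a25 to a24, a25 to a23, a24 to a23 and a14 to a30, and mixed for a22 to a18, while a2 in the ratio of a15 to a2 is not shown to be above background.

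Of 15 measured genes that deliver carriers to the inner membrane, 1 rose, 1 fell and 13 did not pass, against 22.4% of all symbols that passed. Timm10b, a small chaperone of the intermembrane space, rose 1.42-fold, and Timm8b, another such chaperone, fell 1.45-fold. Among the 13 were the receptor gene Tomm70 (0.05 ± 0.12, adjusted p = 0.816) and the insertase gene Timm22 (-0.04 ± 0.09, adjusted p = 0.851). Without aged replicate 1 the number that fell was 3 and without the replacement arrays 0, and without aged replicate 4 the number that rose was 2. Of 8 measured genes of the outer membrane channel and the calcium uniporter 2 fell, against 22.4% of all symbols that passed and 8.69% that fell. They were Vdac1, a porin (1.36-fold), and Micu3, a uniporter regulator (1.33-fold). In the fits without aged replicate 2 or 4, young replicate 4 or the replacement arrays, 1 gene of this list fell. Of 6 genes of phosphate transfer and the permeability pore Ppif, cyclophilin D, fell 1.56-fold, and Ckmt2, the mitochondrial creatine kinase that works with Slc25a4, fell 1.45-fold, and 1 gene of this list fell without the replacement arrays. The pyruvate carrier subunit gene Mpc1 fell 1.52-fold (adjusted p = 0.0233), a call lost without aged replicate 2, young replicate 3 or the replacement arrays and with a pseudocount, and the other of the 2 measured genes did not pass. Of 9 regulators of mitochondrial genes 4 fell, against 8.69% of all symbols that fell. Ppargc1a, which encodes the coactivator PGC-1α, fell 2.61-fold (adjusted p = 0.000938), Ppargc1b 1.67-fold, and the nuclear receptor genes Ppara 1.44-fold and Esrrg 1.3-fold. Ppara was dim (mean intensity 15.3 in aged and 22.0 in young muscle), and Esrrg passed narrowly (adjusted p = 0.0421) with overlapping ranges. Leaving out single animals gave 3 to 4 falls and 0 to 1 rises in this list, and median centring gave 3 falls and 1 rise. Tfam, a factor of mitochondrial DNA, was among the 5 that did not pass (0.17 ± 0.09, adjusted p = 0.267).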

How the data were processed

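Total RNA was labelled as biotinylated complementary RNA and per the labels' protocols, hybridised to one-colour arrays. Deposited were linear intensities that the authors normalized between arrays with RMA, per the submitters' processing notes; its version and the array design are not given in the sources used here. RMA compresses differences of dim probe sets. The number of arrays limits the precision. Log2 intensities, without pseudocount or filter, were fitted with limma 3.58.1 in R 4.3.3 (two-sided, age group as the only term), with Benjamini-Hochberg adjustment over 43686 probe sets. Standard errors, 95% intervals and p-values of genes come from this fit, and folds are ratios of geometric means. The annotated table gave the groups, and the series' value table, equal for 43685 probe sets, the replicate numbers. Of 19091 symbols 22 read as dates and were left out. Companion genes were matched by symbol or an older symbol, and promoters are RefSeq's (GRCr8). The results of 1 member and a few companion genes are not reported here by name.

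The family, lists, pairs and naming rule were chosen with earlier results of these data known. The rule took up to 12 falls and 12 rises past the threshold, some well-known muscle carriers and pairs past the threshold per animal. Of companions it took up to 4 per list, and more are named for the NADH shuttle and regulator lists. On simulated data of 43686 probe sets with independent normal noise, 100 were changed 1.5-fold and 100 2-fold. Of these changes 78% and 98% were recovered, with 7 false calls. Far fewer probe sets were changed there than the 6536 called in the real data, so these shares do not measure the sensitivity of the fits above. Same-numbered arrays are different animals, and their deviations from group means correlated between -0.12 and 0.03, so replicate numbers do not pair them. Alternatives were quantile or median scaling, the mean over probe sets, bright probe sets, a pseudocount of 16, a variance trend with robust fitting, leaving out animals, and the replicate block.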

Additional observations from a re-analysis of the deposited data

Results flagged for a closer look

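In 4 of 78 groups of 5 animals (39 genes, 2 ages) the highest animal stood apart from the others by Dixon's test on log2 intensity, and chance alone flags about 5% of such groups. For Slc25a1 it was aged replicate 4, at an intensity of 65.3 against 54.1 to 55.9 in the other aged animals. For Slc25a13 it was young replicate 2, at 38.9 against 27.8 to 30.0. For Slc25a26 it was young replicate 3, at 167 against 146 to 151. For Slc25a41 it was young replicate 2, at 11.9 against 9.80 to 10.3, near the level of the array medians.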

How the results depend on the processing

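Of 698 member values under 18 alternatives 644 kept their direction and their side of the threshold, 25 lost the call, 13 gained one and 16 turned sign, none of these in the 16 genes that passed. The calls of 10 genes (Slc25a25, Slc25a30, Slc25a26, Slc25a38, Slc25a15, Slc25a32, Slc25a5, Slc25a17, Slc25a1 and Slc25a16) held in every alternative. Without the replacement arrays 6 members fell, 1846 probe sets were lower and 4 pairs of carriers changed unequally, against 10, 3001 and 8 (counting the ratio of Slc25a15 to Slc25a2, which turns on a gene not shown to be above background). With the mean over probe sets 1807 symbols were lower and 5 pairs changed unequally; here symbols rather than probe sets were tested. Leaving out single animals gave 7 to 12 members lower, 5 to 7 higher, a median member difference of -0.12 to -0.09, 6 to 7 pairs, and 5117 to 7627 probe sets called, 2844 to 4100 higher and 2213 to 3527 lower. With the replicate block 6 members rose and 10 fell, as without it, and 5551 probe sets passed; for the pairs, a sign flip over same-numbered animals can reach no p below 0.0625, and 0 pairs passed. Scaling left the 10 falls in place, with 6 rises under quantile normalization and 7 under median centring.

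Uncalled values near 0 turned sign: Slc25a45 to -0.020 with quantile normalization and -0.10 with the mean over probe sets, Slc25a22 to 0.014 with median centring, and Slc25a18 to 0.012, Slc25a21 to -0.042 and Slc25a29 to 0.10 without the replacement arrays. The pair of Slc25a22 and Slc25a18 turned to -0.056 with quantile normalization and -0.064 without the replacement arrays. Without single animals Slc25a21 ranged from -0.013 to 0.12, Slc25a22 from -0.094 to 0.062, Slc25a29 from -0.25 to 0.0092, Slc25a45 from -0.039 to 0.074, Slc25a46 from -0.11 to 0.016 and that pair from -0.036 to 0.14. The cause of these shifts was not tested.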
